A study of Mus musculus with 12 samples.

Results

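Transcripts of 31 genes of the p53 pathway and the DNA damage response were followed in primary mouse hepatocytes that had received a hairpin against TLS. The 31 genes were chosen by name for their known place in the pathway, with earlier results of these data known. Their shares set beside those of all genes are therefore descriptions and not independent evidence. Each was represented by the brightest of its array probes that map to it through RefSeq. All 31 were found on the array and tested, among 19019 genes or accessions tested, and 30 of them were well above background on all 12 arrays. Eda2r was well above background on 11.

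The 4 groups were PGC-1alpha-/- hepatocytes with a TLS hairpin (shTLS), PGC-1alpha-/- hepatocytes with a control hairpin, PGC-1alpha+/+ hepatocytes with shTLS and PGC-1alpha+/+ hepatocytes with the control hairpin. PGC-1alpha coactivates transcription of genes for mitochondria and for gluconeogenesis, TLS is an RNA-binding protein, and a short hairpin RNA lowers the transcript it is directed against. All cells were of C57BL/6 mice, were grown with 100 nM dexamethasone and 100 nM insulin, received an adenovirus at a multiplicity of infection of 5 and were collected 24 h after infection. Cells of 6 mice, 3 of each genotype, were divided between both hairpins, which makes 12 arrays with 3 in every group. All groups were infected, which leaves no measure of what the virus itself did, and the labels give neither the age of the mice nor the extent of the deletion. Every value below is a log2 value of the authors' quantile-normalized table, a difference is in log2 units, and levels are compared between samples for 1 probe and not between probes.

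p53, encoded by Trp53, is a transcription factor that is held low in unstressed cells by MDM2, which marks it for destruction. DNA damage and other stresses stabilize it, mostly by modification of the protein, and it then switches on genes that stop the cell cycle, start apoptosis or help repair. Several of its targets, MDM2 among them, feed back on p53 itself. Hepatocytes rarely divide, and in liver the pathway is known for its part in the response to toxins and in regeneration.

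p53 binds DNA as a tetramer that reads a pair of adjacent decamers. The sequences that follow show where members of the list carry such a pair within 250 bases before to 50 bases after a RefSeq transcription start (assembly GRCm38.p6). RefSeq windows were at hand for 23 of the 31 members, 30 windows in all, and 8 members had none. A pair without a spacer, with at most 3 mismatches in its 20 bases and with the central C and G of each decamer kept, was found in 9 of the 30 windows (30%), from 8 members, and in 453 of all 32851 mouse windows (1.38%). A single decamer that fits the p53 consensus, which reads the same on both strands, was in 12 of 30 windows (40%) and in 8.36% of all windows. The sites are printed in capitals with mismatched bases in lower case.
Ccng1, chr11:40755462-40755481, minus strand: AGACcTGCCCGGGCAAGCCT
Gtse1, chr15:85859945-85859964, plus strand: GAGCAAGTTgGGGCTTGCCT
Sesn1, chr10:41887266-41887285, plus strand: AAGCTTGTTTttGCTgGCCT
Bbc3, chr7:16309486-16309505, plus strand: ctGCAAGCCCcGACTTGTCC
Cdkn1a, chr17:29090928-29090947, plus strand: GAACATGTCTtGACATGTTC
Trp53, chr11:69580284-69580303, plus strand: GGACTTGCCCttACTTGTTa
Tigar, chr6:127109746-127109765, minus strand: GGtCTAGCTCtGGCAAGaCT
Aen, chr7:78895937-78895956, plus strand: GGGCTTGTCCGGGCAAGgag
Of these 8 genes, Bbc3 passed as higher with shTLS in the averaged comparison described below. Ccng1, Gtse1 and Sesn1 passed only with a replicate block, and Cdkn1a, Tigar, Aen and the brightest Trp53 probe passed in neither of these fits. The windows of Plk2 and Polk, which also passed, held no such pair. A match describes the letters of a window and is not a measured binding site.

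The whole window is shown for 2 of them, with the site in capitals, since Bbc3 had the smallest adjusted p of all members in the averaged comparison described below and Cdkn1a is the standard target of p53 in cell cycle arrest. In the Cdkn1a window, which belongs to an upstream start, a further single decamer is in capitals too. The Bbc3 window likewise belongs to its most upstream start. The other windows of both genes, at starts further downstream, held neither such a pair nor a single decamer.
Bbc3, chr7:16309333-16309632, plus strand: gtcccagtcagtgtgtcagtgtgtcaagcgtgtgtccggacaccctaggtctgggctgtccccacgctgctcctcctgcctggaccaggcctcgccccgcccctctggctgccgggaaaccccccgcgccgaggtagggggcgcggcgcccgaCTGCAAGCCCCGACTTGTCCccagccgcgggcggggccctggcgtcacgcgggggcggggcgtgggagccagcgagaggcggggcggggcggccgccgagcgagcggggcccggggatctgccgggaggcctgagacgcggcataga
Cdkn1a, chr17:29090729-29091028, plus strand: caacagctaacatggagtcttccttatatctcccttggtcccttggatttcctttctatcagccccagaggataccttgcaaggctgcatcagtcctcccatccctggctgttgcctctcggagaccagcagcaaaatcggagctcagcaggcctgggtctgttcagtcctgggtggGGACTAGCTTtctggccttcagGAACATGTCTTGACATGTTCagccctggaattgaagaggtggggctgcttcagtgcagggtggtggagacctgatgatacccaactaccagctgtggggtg

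Averaged over both genotypes, 3 members rose with shTLS, namely Bbc3, which encodes the apoptosis inducer PUMA, Plk2, which encodes a polo-like kinase, and Polk, which encodes a DNA polymerase that copies damaged templates. Bbc3 was higher by 0.93 (SE 0.18), Plk2 by 0.99 (SE 0.25) and Polk by 1.13 (SE 0.26), with adjusted p = 0.0128, 0.036 and 0.0282 (limma, Benjamini-Hochberg over 19019 genes). These 3 of 31 members are 9.68%, against 8.27% of all genes called, and against 5.15% called as higher, so the count of calls is near the background. Cdkn1a differed by 0.38 (SE 0.29) and the brightest Trp53 probe by 0.31 (SE 0.25), and neither passed (adjusted p = 0.424 and 0.43). A second probe of Trp53, described below, was higher by 1.80.

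Both cultures of a mouse carry the same number, and all 4 arrays with a number shared a slide. With that number as a replicate block in the fit, 12 members passed, 11 higher and 1 lower, where 29% of all genes passed (15.3% higher and 13.7% lower). The 11 were Mdm2, Ccng1, Gadd45b, Plk2, Gtse1, Sesn1, Bbc3, Pmaip1, Eda2r, Fas and Polk, and the 1 lower was Perp. The share of members called as higher was thus 35.5%, against 15.3% of all genes, and the share called as lower was 3.23%, against 13.7%; no test was made of these shares. Mdm2, Ccng1, Gadd45b, Plk2, Bbc3, Pmaip1 and Polk passed with the block in all 12 fits that leave out 1 array, whereas Eda2r passed in 8 of them, Gtse1 and Perp in 5, Fas in 3 and Sesn1 in 2. The count of members called ranged from 8 to 13 in these fits, where 20.4% to 33.2% of all genes passed. The 13 came from the fit with 33.2%.

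Of the 31 members, 22 had a difference above 0, where 49.1% of all genes did, and the median over the 31 was 0.31, against -0.02 for all genes. An unadjusted p under 0.05 was found for 11 members, where 28.1% of all genes had one. A set of 10 of the 31 (Mdm2, Ccng1, Gadd45b, Plk2, Gtse1, Bbc3, Pmaip1, Eda2r, Fas and Polk) were higher with shTLS in all 6 mice, where 19.4% of all genes were. Bax and Perp were lower in all 6, where 18.9% of all genes were. In each mouse the median over the members was above 0, at 0.17, 0.49 and 0.46 in the PGC-1alpha-/- mice and 0.18, 0.17 and 0.42 in the PGC-1alpha+/+ mice. The median over all genes in the same mice lay between -0.05 and 0.02.

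**Figure D1:**
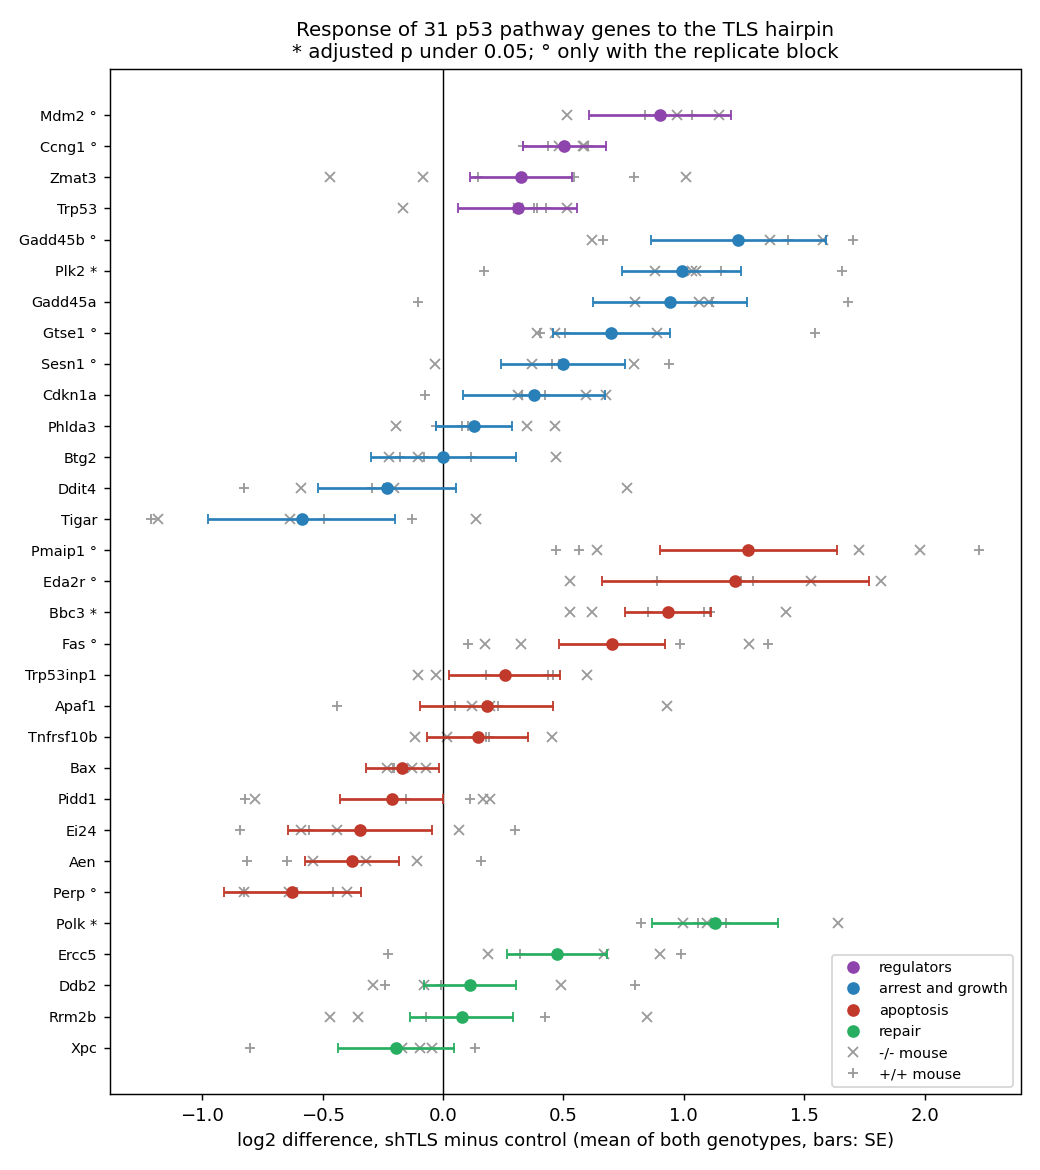
Log2 difference of each of the 31 members between shTLS and control cultures, averaged over both genotypes (coloured points, bars are SE), with the difference in each mouse (grey crosses for PGC-1alpha-/-, grey plus signs for PGC-1alpha+/+) and the members grouped by role. A star marks the 3 members with an adjusted p under 0.05 and a small circle the 9 that passed with the replicate block alone; 22 of 31 points lie above 0 on this scale and 8 of 31 when the arrays are scaled to spike-in controls.

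All of this holds against the other genes of an array. Before normalization the 6 shTLS arrays were dimmer, with a 75th percentile of signal from 344 to 635, against 810.4 to 1064 on the 6 control arrays, and quantile normalization removes such a gap. Scaled instead to 8 spike-in probes of known amount, the median of all genes shifted to -0.81, the median of the members was -0.52 and 8 of 31 members stayed above 0 (Mdm2, Gadd45a, Gadd45b, Plk2, Bbc3, Pmaip1, Eda2r and Polk). On that scale 0 members were called as higher, where 3.2% of all genes were, and 12 as lower, where 51.3% were. The 12 were Trp53 (brightest probe), Ddit4, Phlda3, Tigar, Bax, Perp, Ei24, Tnfrsf10b, Aen, Pidd1, Xpc and Ddb2. The cause of the dimmer shTLS arrays was not tested, and the spike-ins do not measure RNA per cell or the number of cells. Each group also had a fixed position on the slide, which cannot be told apart from the hairpin here.

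**Figure D2:**
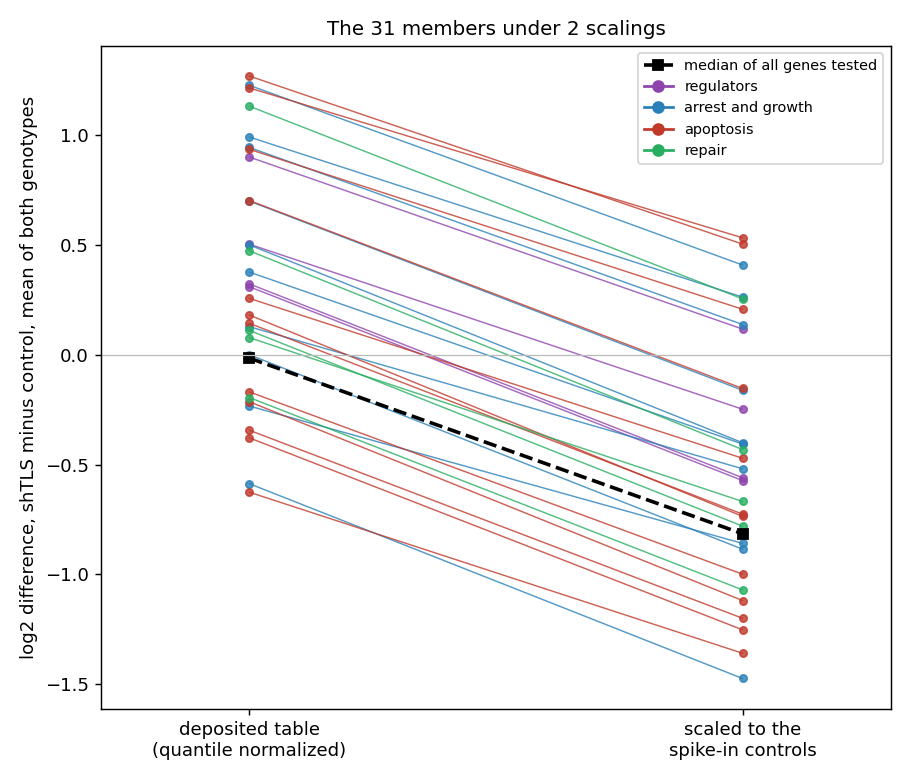
Log2 difference between shTLS and control cultures, averaged over both genotypes, for each of the 31 members under the deposited quantile normalization (left) and after scaling to the spike-in controls (right), with the median of all genes tested as a dashed line. The median of all genes was -0.02 on the left and -0.81 on the right, and that of the members 0.31 and -0.52, so 14 members that lie above 0 on the left lie below it on the right.

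Among the regulators of p53, all 4 members had a difference above 0, with a median of 0.41. Mdm2 encodes the ubiquitin ligase that destroys p53 and is itself a p53 target. It read 13.81, 14.36 and 13.97 in PGC-1alpha-/- shTLS cultures, against 12.84, 13.22 and 13.46 in PGC-1alpha-/- control cultures. The PGC-1alpha+/+ cultures read 13.31, 14.60 and 13.92 with shTLS and 12.27, 13.71 and 13.08 with the control. All 3 shTLS values lay above all 3 controls in PGC-1alpha-/- cells, while the groups overlapped in PGC-1alpha+/+ cells, where mouse 2 was high with either hairpin. The mean difference was 0.90 (SE 0.29, adjusted p = 0.0806, and 0.0076 with the replicate block), or 1.87-fold, and it was higher in 6 of 6 mice.

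Ccng1 encodes cyclin G1, a p53 target that acts back on MDM2, and its site is the first in the list of sequences above. It read 14.31, 14.62 and 14.71 in PGC-1alpha-/- shTLS cultures, against 13.73, 14.04 and 14.23 in the matching controls. Its PGC-1alpha+/+ values were 14.53, 14.38 and 14.79 with shTLS and 13.92, 14.05 and 14.35 with the control. The shTLS and control values did not overlap in either genotype, and the mean difference was 0.50 (SE 0.17, adjusted p = 0.0927, and 0.0169 with the block). It was -0.25 when scaled to the spike-ins, and a dimmer second Ccng1 probe differed by 0.09 (SE 0.24, adjusted p = 0.832). Zmat3, an RNA-binding target of p53, differed by 0.32 (adjusted p = 0.34) and was above 0 in 4 of 6 mice.

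The brightest Trp53 probe read 10.26, 9.96 and 10.93 in PGC-1alpha-/- shTLS cultures, against 9.95, 10.13 and 10.41 in PGC-1alpha-/- controls. PGC-1alpha+/+ cells gave 10.26, 9.94 and 10.81 with shTLS and 9.89, 9.52 and 10.42 with the control. The groups overlapped in both genotypes. The second probe of Trp53, which carries the same RefSeq accession and was well above background on all 12 arrays, gave another picture. It was looked at after its values were known and does not belong to the members as the rule sets them.

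That second probe read 10.00, 10.64 and 10.48 in PGC-1alpha-/- shTLS cultures, against 8.53, 8.74 and 8.38 in PGC-1alpha-/- controls. In PGC-1alpha+/+ cells it read 9.95, 10.38 and 10.86 with shTLS and 8.37, 8.78 and 8.68 with the control. All 6 shTLS values were above all 6 controls. In a fit of each of 24965 probes on its own it was higher by 1.80 (SE 0.21, adjusted p = 0.000629), by 1.82 in PGC-1alpha-/- cells and by 1.78 in PGC-1alpha+/+ cells. Scaled to the spike-ins the difference was 0.91 (adjusted p = 0.00887), and over fits that leave out 1 array it was 1.69 to 1.91 with adjusted p of at most 0.00327. With the mean of its 2 tested probes in place of the brightest, Trp53 passed as higher in the averaged comparison. That mean includes the second probe and is not separate evidence. The brightest probe, scaled to the spike-ins, differed by -0.57 (adjusted p = 0.0433 in limma's fit of single probes). On that scale the 2 probes were thus called in opposite directions. The 2 probes disagree, and which part of the transcript each reads was not analysed here.

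**Figure D3:**
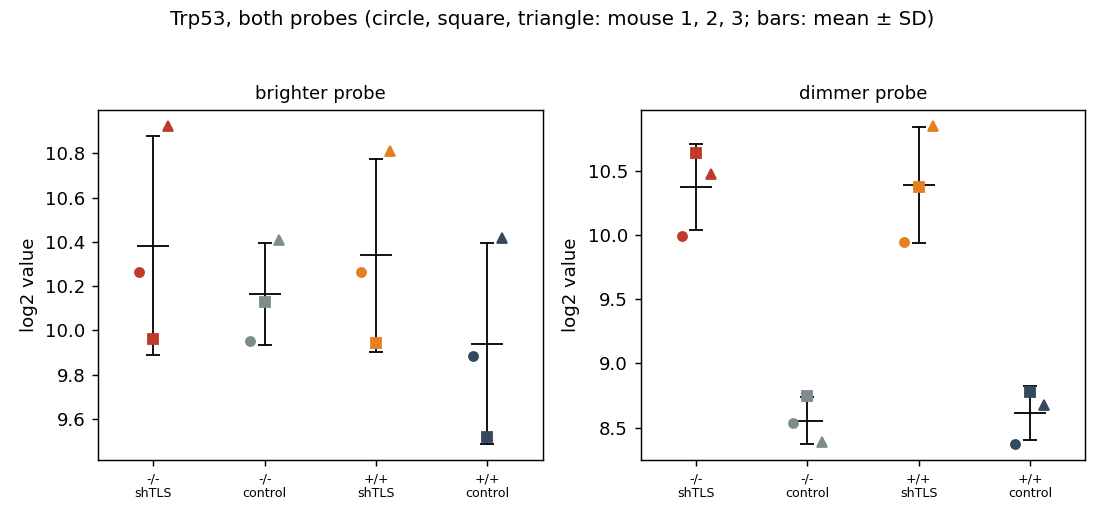
Log2 values of the brighter (left) and the dimmer (right) Trp53 probe in every culture of the 4 groups, with mean and SD as bars; each panel has its own axis. The brighter probe overlaps between shTLS and control cultures, while on the dimmer probe the 6 shTLS values lie between 9.95 and 10.86 and the 6 control values between 8.37 and 8.78.

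Among the 10 members of growth arrest and stress, 7 had a difference above 0, with a median of 0.44. Plk2, a kinase induced by p53 that acts on the centrosome and the checkpoint, read 14.59, 15.12 and 15.07 in PGC-1alpha-/- shTLS cultures, against 13.71, 14.09 and 14.02 in the controls. The PGC-1alpha+/+ cultures read 14.83, 14.77 and 15.23 with shTLS and 13.17, 14.60 and 14.07 with the control. The groups were apart in each genotype, and 1 control value, that of PGC-1alpha+/+ mouse 2, reached the lowest shTLS value of the other genotype. The fold was 1.99. Leaving out 1 array, Plk2 passed only without PGC-1alpha+/+ control array 2 or 3, PGC-1alpha-/- shTLS array 1 or PGC-1alpha-/- control array 3. Without single arrays its adjusted p rose to at most 0.0959 at a difference of at least 0.80, and it was 0.00625 with the block. Scaled to the spike-ins its difference was 0.26 (adjusted p = 0.435).

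Gadd45b, a stress sensor that acts on MAP kinase signalling and DNA demethylation, read 12.57, 13.39 and 13.30 in PGC-1alpha-/- shTLS cultures, against 10.99, 12.03 and 12.68 in the controls. Its PGC-1alpha+/+ values were 13.27, 14.39 and 13.39 with shTLS and 11.56, 12.96 and 12.72 with the control. It was higher in 6 of 6 mice, by 1.23 (SE 0.36, adjusted p = 0.0623, and 0.00485 with the block). Its relative Gadd45a, which binds PCNA and the p21 protein, differed by 0.94 (SE 0.32, adjusted p = 0.0898, and 0.054 with the block). In Gadd45a 5 of 6 mice were above 0.

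Gtse1 encodes a microtubule-bound protein of dividing cells that moves p53 out of the nucleus. It read 11.93, 12.58 and 11.46 in PGC-1alpha-/- shTLS cultures, against 11.54, 11.69 and 10.99 in the controls. PGC-1alpha+/+ cells gave 11.85, 12.35 and 11.69 with shTLS and 11.45, 10.81 and 11.18 with the control. It was higher in 6 of 6 mice, by 0.70 (SE 0.24, adjusted p = 0.0957, and 0.0319 with the block). Its difference was -0.16 when scaled to the spike-ins.

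Sesn1, a sestrin that restrains mTORC1, read 9.87, 10.02 and 10.51 in PGC-1alpha-/- shTLS cultures, against 9.90, 9.23 and 10.14 in the controls. In PGC-1alpha+/+ cells it read 10.55, 10.05 and 10.64 with shTLS and 10.0998, 9.12 and 10.16 with the control. The groups overlapped in each genotype, and the difference was 0.50 (SE 0.26, adjusted p = 0.228, and 0.0468 with the block), or -0.40 when scaled to the spike-ins.

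Cdkn1a encodes p21, the inhibitor of cyclin-dependent kinases through which p53 stops the cell cycle. It read 13.43, 13.21 and 14.04 in PGC-1alpha-/- shTLS cultures, against 12.75, 12.61 and 13.72 in the controls. The PGC-1alpha+/+ cultures read 13.08, 13.48 and 14.05 with shTLS and 12.65, 13.55 and 13.72 with the control. It was above its control in 5 of 6 mice, and mouse 3 was the highest in every group. The 95% interval of its difference ran from -0.27 to 1.03. It passed in 1 of the 12 fits with the block that leave out 1 array, that without PGC-1alpha+/+ control array 2.

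Of the remaining arrest members, Phlda3, a p53-induced inhibitor of AKT, differed by 0.13 and Btg2, an antiproliferative protein, by less than 0.01 in size. Ddit4, which restrains mTORC1, differed by -0.23 and Tigar, which lowers glycolytic flux, by -0.59. None of these 4 passed, with or without the block (adjusted p from 0.312 to 1.00). Tigar was below its control in 5 of 6 mice, with an SE of 0.39.

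**Figure D4:**
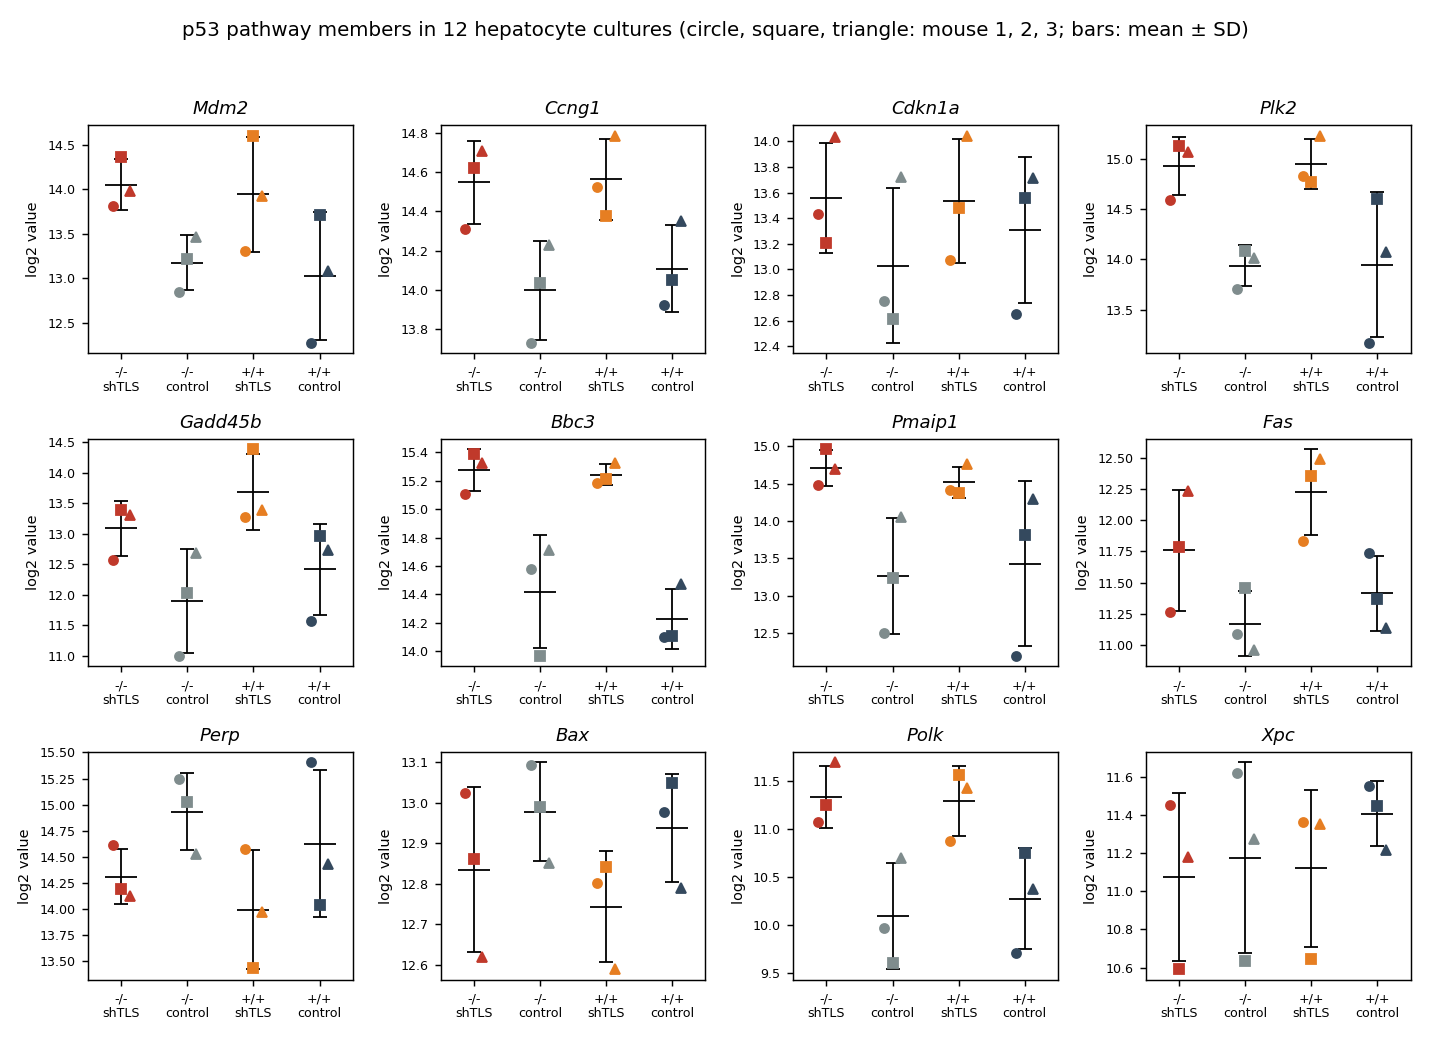
Log2 values of 12 members in every culture, by group (PGC-1alpha-/- shTLS, PGC-1alpha-/- control, PGC-1alpha+/+ shTLS, PGC-1alpha+/+ control), with symbols for the mouse number and bars for mean and SD. In Bbc3 all 6 shTLS values lie above all 6 controls, as in Pmaip1 and Polk, whereas Cdkn1a, Bax and Xpc overlap between the groups.

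The apoptosis members went both ways, with 7 of 12 above 0 and a median of 0.16. Bbc3 encodes PUMA, a BH3-only protein that frees BAX and BAK to permeabilize mitochondria, and its most upstream window is printed above. It read 15.10, 15.39 and 15.33 in PGC-1alpha-/- shTLS cultures, against 14.58, 13.97 and 14.71 in the controls. Its PGC-1alpha+/+ values were 15.19, 15.21 and 15.32 with shTLS and 14.10, 14.11 and 14.47 with the control. All 6 shTLS values were above all 6 controls, and they lay closer together than the controls did. The fold was 1.91, and Bbc3 passed in all 12 fits that leave out 1 array. Scaled to the spike-ins its difference was 0.21 (adjusted p = 0.349).

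Pmaip1 encodes NOXA, another BH3-only protein. It read 14.48, 14.96 and 14.69 in PGC-1alpha-/- shTLS cultures, against 12.50, 13.24 and 14.05 in the controls. PGC-1alpha+/+ cells gave 14.42, 14.38 and 14.76 with shTLS and 12.19, 13.81 and 14.29 with the control. Again all 6 shTLS values were above all 6 controls, and the controls were spread far wider, with mouse 1 of either genotype lowest. The difference was 1.27 (SE 0.37, adjusted p = 0.0592, and 0.00907 with the block), or 2.41-fold. Bbc3, Pmaip1 and Polk were the 3 members without such an overlap, as were 4.01% of all genes.

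Fas, the death receptor, read 11.26, 11.78 and 12.23 in PGC-1alpha-/- shTLS cultures, against 11.09, 11.46 and 10.96 in the controls. In PGC-1alpha+/+ cells it read 11.84, 12.35 and 12.49 with shTLS and 11.73, 11.37 and 11.14 with the control. It was above its control in 6 of 6 mice, least in mouse 1 of either genotype. The difference was 0.70 (SE 0.22, adjusted p = 0.0733, and 0.0366 with the block). Scaling to the spike-ins gave -0.15.

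Eda2r, a receptor for an ectodysplasin, was the member not well above background on every array. It read 4.84, 5.54 and 6.76 in PGC-1alpha-/- shTLS cultures, against 4.32, 4.01 and 4.94 in the controls. The PGC-1alpha+/+ cultures read 5.98, 4.61 and 7.21 with shTLS and 5.09, 3.32 and 5.98 with the control, with 2 of these 3 controls well above background. It was higher in 6 of 6 mice, by 1.21 (SE 0.56, adjusted p = 0.181, and 0.022 with the block).

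Perp encodes a membrane protein of desmosomes that p53 uses in apoptosis, and it ran the other way. It read 14.61, 14.19 and 14.13 in PGC-1alpha-/- shTLS cultures, against 15.25, 15.02 and 14.53 in the controls. Its PGC-1alpha+/+ values were 14.58, 13.43 and 13.98 with shTLS and 15.41, 14.04 and 14.43 with the control. It was lower in 6 of 6 mice, with a difference of -0.63 (SE 0.29, adjusted p = 0.18, and 0.0332 with the block). Scaling to the spike-ins gave -1.36.

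Bax, the effector that opens the mitochondrial membrane, stood at -0.17 (95% interval from -0.51 to 0.17). It was below its control in 6 of 6 mice, each time by a small amount. Apaf1, the scaffold of the apoptosome, differed by 0.18, Trp53inp1, a stress-induced nuclear protein, by 0.26 and Tnfrsf10b, the TRAIL receptor, by 0.14. Ei24, a protein of the endoplasmic reticulum, differed by -0.34, Aen, a nuclease, by -0.38 and Pidd1, the scaffold of the PIDDosome, by -0.21. On its brightest probe none of these 7 passed in either fit (adjusted p from 0.102 to 0.696). Other probes of Tnfrsf10b, Aen and Pidd1 gave other values, which are listed below.

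Of the 5 repair members, 4 had a difference above 0, with a median of 0.11, and 1 passed. Polk, the translesion polymerase kappa, read 11.07, 11.25 and 11.69 in PGC-1alpha-/- shTLS cultures, against 9.97, 9.61 and 10.70 in the controls. PGC-1alpha+/+ cells gave 10.88, 11.56 and 11.43 with shTLS and 9.70, 10.74 and 10.37 with the control. All 6 shTLS values were above all 6 controls, and the fold was 2.19. A second, dimmer Polk probe was higher by 1.27 (SE 0.27, adjusted p = 0.0199). Leaving out 1 array, the brightest probe passed only in the fits named for Plk2 and in that without PGC-1alpha+/+ shTLS array 1. Without single arrays the adjusted p of the brightest probe rose to at most 0.0747 at a difference of at least 0.99. Scaled to the spike-ins its difference was 0.25 (adjusted p = 0.341).

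The other repair members are classical nucleotide excision and precursor genes. Xpc, which finds distorted DNA, differed by -0.19, and Ddb2, which binds UV lesions, by 0.11. Rrm2b, the p53-induced subunit of ribonucleotide reductase, differed by 0.08 and Ercc5, the nuclease XPG, by 0.47. None of these 4 passed (adjusted p from 0.103 to 0.838 over both fits), and Ercc5 was above 0 in 5 of 6 mice.

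Further probes existed for 14 members, and 18 of these other probes were well above background on all arrays. The sign of the averaged difference was the same as that of the brightest probe for 14 of the 18. It differed for the other Btg2 probes, the other Aen probe (0.03) and the dimmest Pidd1 probe. In limma's fit of single probes the dimmest Tnfrsf10b probe was higher by 0.57 (adjusted p = 0.115, and 0.00829 with the replicate block). The dimmest Pidd1 probe was higher by 0.42 (adjusted p = 0.126, and 0.0291 with the block), while the second Pidd1 probe differed by -0.51.

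In PGC-1alpha-/- cells alone, 0 members passed, against 0.994% of all genes, and 6 had an unadjusted p under 0.05 (Ccng1, Gadd45b, Plk2, Bbc3, Pmaip1 and Polk), against 12.2% of all genes. With the replicate block Polk passed, at 1.24 (SE 0.37, adjusted p = 0.0408), where 6.22% of all genes did (4.37% as higher). In PGC-1alpha+/+ cells alone, 0 members passed, against 1.2% of all genes, and 7 had an unadjusted p under 0.05 (Mdm2, Gadd45b, Plk2, Gtse1, Bbc3, Fas and Polk), against 16.5%. With the block 4 passed, Mdm2 at 0.92, Gadd45b at 1.27, Plk2 at 0.99 and Bbc3 at 1.01 (adjusted p = 0.0468, 0.0318, 0.0433 and 0.0194), where 12.5% of all genes did (7.47% as higher). With each mouse as a block instead, 4 members passed in PGC-1alpha-/- cells (8.42% of all genes) and 5 in PGC-1alpha+/+ cells (15.7%). Mdm2, Gadd45b, Eda2r and Polk were in both sets, and Bbc3 was the further one in PGC-1alpha+/+ cells. With this block 12 passed averaged over genotypes (32.8%). Scaled to spike-ins, 5 members were called as lower in PGC-1alpha+/+ cells, where 21.3% of all genes were. Differences lay above 0 for 23 members in PGC-1alpha-/- cells (48.2% of all genes) and for 21 in PGC-1alpha+/+ cells (49.6%). All 3 mice were higher with shTLS for 14 members in PGC-1alpha-/- cells (27% of all genes) and for 15 in PGC-1alpha+/+ cells (26.5%). Members that lay above their controls without overlap were 7 in PGC-1alpha-/- cells, against 10.5% of all genes, and 10 in PGC-1alpha+/+ cells, against 10.9%.

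Whether PGC-1alpha alters the response was asked by the difference between the effects of shTLS in both genotypes. It was not called for any member in limma's test, as for 0% of all genes, and 0 members had an unadjusted p under 0.05, where 0.263% of all genes did. Bbc3 was higher by 0.86 in PGC-1alpha-/- cells and by 1.01 in PGC-1alpha+/+ cells, and the difference of -0.16 had a 95% interval from -0.95 to 0.63. Pmaip1 was higher by 1.45 and by 1.09 in the same order of genotypes, with an interval of the difference from -1.27 to 1.99. For Cdkn1a the effects were 0.53 and 0.23, with an interval from -0.998 to 1.60. These intervals come from the fit without a block, which does not pair the cultures of a mouse. With each mouse as a block 0 members were called as well, as were 0% of all genes. The intervals are wide, with 3 mice per genotype and no pairing, and they do not show that the genotypes responded alike.

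**Figure D5:**
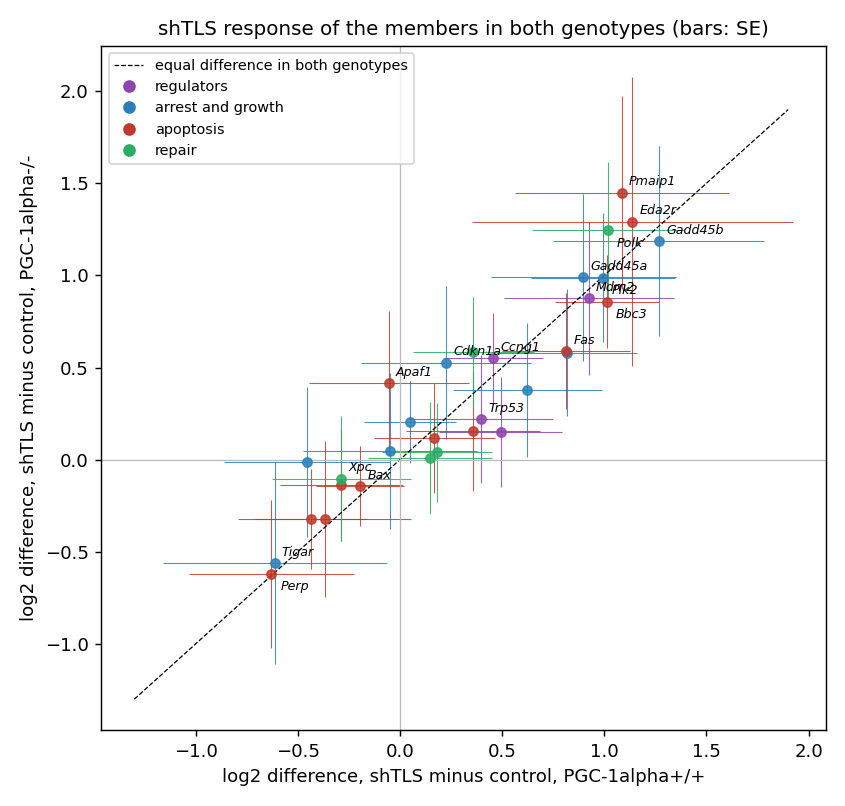
Log2 difference between shTLS and control cultures of the 31 members in PGC-1alpha-/- cells (vertical axis) and in PGC-1alpha+/+ cells (horizontal axis), with SE as bars and a dashed line where both are equal; colours give the role. Bbc3 lies at 0.86 and 1.01 and Perp at -0.62 and -0.63, and no member had an unadjusted p under 0.05 for its distance from the dashed line.

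The comparison of genotypes at a given hairpin called 0 members. With the control hairpin 0.0894% of all genes passed and with shTLS 0.0841%, and averaged over hairpins, with the mouse as a random block, 0.116% did. No member had an unadjusted p under 0.05 in these 3 comparisons, where 3.29%, 2.12% and 2.76% of all genes had. Averaged over hairpins Bbc3 differed by 0.11 between PGC-1alpha-/- and PGC-1alpha+/+ cells (95% interval from -0.46 to 0.69), and Cdkn1a by -0.13 (from -0.85 to 0.60). Trp53inp1 stood at -0.51 (from -1.14 to 0.11). Its control cultures were the only ones of a member in which the genotypes did not overlap, with a difference of -0.41, where 3.75% of all genes were lower without overlap.

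Of other genes of the pathway, few passed in the averaged comparison of shTLS with control. Of all genes 8.27% passed there, 5.15% as higher and 3.11% as lower. Among 14 tested damage sensors and checkpoint kinases, 1 rose and 1 fell. Rad9a, of the checkpoint clamp, was higher by 1.42 (SE 0.35, adjusted p = 0.0325), and H2ax, the histone variant phosphorylated at breaks, differed by -1.40 (SE 0.38, adjusted p = 0.0484). Rad9a was above its control in 6 of 6 mice and H2ax in 0 of 6. Scaled to the spike-ins Rad9a stood at 0.54 and H2ax at -2.24. H2ax averaged 12.47 in PGC-1alpha-/- shTLS cultures against 13.99 in PGC-1alpha-/- controls, and 11.34 in PGC-1alpha+/+ shTLS cultures against 12.62 in PGC-1alpha+/+ controls.

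Of 19 tested genes for the repair of strand breaks and crosslinks, 1 fell, Fancc of the Fanconi anaemia core complex, at -0.80 (SE 0.19, adjusted p = 0.0298). Of 22 tested excision and mismatch repair genes, 1 rose, Ercc8, which acts in transcription-coupled repair, at 1.03 (SE 0.28, adjusted p = 0.0485). Of 14 core apoptosis proteins, 1 fell, Mcl1, an inhibitor of apoptosis that NOXA binds, at -0.90 (SE 0.22, adjusted p = 0.0317). Mcl1 was lower in 6 of 6 mice. Of 12 modifiers and relatives of p53, and of 19 other p53 targets, 0 passed. With the replicate block, where 15.3% of all genes were called as higher and 13.7% as lower, 3 modifiers were higher and 1 lower, and 2 other targets were higher and 2 lower. In that fit 2 damage sensors and checkpoint kinases were higher and 1 lower. Strand-break and crosslink repair had 3 higher and 3 lower, excision and mismatch repair 2 and 2, and the core apoptosis proteins 1 and 3. The median difference of the other p53 targets was -0.02, and 9 of 19 were above 0, against 22 of the 31 members.

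Markers of hepatocytes were present in all groups, with all 7 matched of 10 listed genes, albumin among them, well above background on all 12 arrays. Of the cholangiocyte, macrophage, endothelial and stellate markers, 0 passed in the averaged comparison without a block, where 8.27% of all genes did. The summed linear level of 6 cholangiocyte markers, all matched, was 18516 to 62274 in PGC-1alpha-/- shTLS cultures, against 49272 to 215014 in PGC-1alpha-/- controls. In PGC-1alpha+/+ cells it was 18955 to 44211 with shTLS and 40557 to 142459 with the control. The ranges overlapped in both genotypes. Spp1, the brightest of the 6 (mean log2 value 15.49, with Krt19 next at 11.38), weighs most in the sum. Of these 6 markers 4 had an averaged difference below 0 and 2 above 0. With the replicate block 3 passed as lower, where 13.7% of all genes did.

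For 9 macrophage markers of 10 listed the sum was 8141 to 26557 in PGC-1alpha-/- shTLS cultures, against 11999.8 to 86042 in the controls, and in PGC-1alpha+/+ cells 5421 to 10577 with shTLS and 6776 to 15447 with the control. All 9 had an averaged difference below 0, and 3 passed as lower with the block, where 13.7% of all genes did. Sums of 7 endothelial markers overlapped between shTLS and control in both genotypes. Those of 7 stellate markers overlapped in PGC-1alpha-/- cells, while in PGC-1alpha+/+ cells the stellate sum was 9055 to 11946 with shTLS and 12260 to 14874 with the control. Of 7 lymphocyte markers, Cd8a and Nkg7 were well above background on 0 arrays, and of the 3 tested 1 passed as higher with shTLS, where 5.15% of all genes did. Their sum was 147 to 224 in PGC-1alpha-/- shTLS cultures against 102 to 380 in PGC-1alpha-/- controls, and 114 to 165 in PGC-1alpha+/+ shTLS cultures against 106 to 156 in PGC-1alpha+/+ controls. The part of other cells in the differences of the p53 members was not tested.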

How the data were processed

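Total RNA of the 12 cultures was labelled with Cy3 and hybridized to 1-colour Agilent whole mouse genome arrays. Per the file headers, the deposited array files were made with Feature Extraction 10.1.1.1 and hold the processed signal as a background-subtracted intensity. They also hold other columns with flags for spots well above background. The authors' table of all arrays holds log2 values, made by setting signals under 1 to 1 and by quantile normalization, per the series' design text. The submitters' processing notes name limma without a version.

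The table's log2 values were used, and the array files gave the flags. Tested probes had the flag on every array of 1 or more of the groups (24965 of 41174 probes). Symbols came through RefSeq accessions from GRCm38.p6 tables, which named 24375 probes and left 16799 unnamed, and the brightest tested probe stood for a gene. No coordinate of the array was used. Tests were made with limma 3.58.1 (R 4.3.3, statmod 1.5.0): 1 fit of the 4 group means to 12 arrays, two-sided, Benjamini-Hochberg over 19019 genes, called under an adjusted p of 0.05. The comparison of genotypes averaged over hairpins had mouse as a random effect (duplicateCorrelation, 0.58).

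The source names say that same-numbered cultures of a genotype came from 1 mouse and 1 assay. Correlations of deviations from group means were 0.22 to 0.67 for the 12 same-numbered pairs of arrays and -0.55 to 0.10 for the 24 others. Pairs from 1 mouse gave 0.45 to 0.67. Same-numbered pairs of different genotypes, which share a slide and no mouse, gave 0.22 to 0.64. These correlations therefore cannot tell a shared mouse from a shared slide. The 3 deviations of a group sum to 0, which by itself lowers the values of the other pairs. A group always had the same position on the slide, and the effects of both cannot be told apart. P-values of the fit without a block measure the spread between cultures of 3 mice a genotype. Those with a replicate or mouse block measure the spread left after the replicate number or the mouse is fitted. No arrays were identical. The number of arrays limits the precision. Symbols for the sequences came from the RefSeq promoter table. The fitting steps were tested on simulated data.

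Members and gene lists were chosen with earlier results of these data known. Members called in any comparison, with or without the block, and Trp53, Cdkn1a, Mdm2 and Bbc3 are given with all values. Of pathway lists, up to 3 called genes per comparison are named, by size. Alternatives were other scalings, background corrections, filters, probe rules and blocks, and leaving out each array. The level of the hairpin's target is not reported here.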

Additional observations from a re-analysis of the deposited data

How the results depend on the processing

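With the number of the mouse as a replicate block, the count of members called was 12 averaged over genotypes, against 3 without it, 4 in PGC-1alpha+/+ cells and 1 in PGC-1alpha-/- cells, against 0 without it. The comparisons of genotypes and the difference of effects stayed at 0 in all settings run. With each mouse as a block the counts were 12 averaged (Gadd45a in place of Fas), 5 in PGC-1alpha+/+ and 4 in PGC-1alpha-/- cells. Scaling to the 75th percentile gave 5 averaged, all higher. The mean of tested probes gave 4 averaged (Trp53 beside Bbc3, Plk2 and Polk), where 8.67% of all genes passed. Normexp gave 4 (Ccng1 beside Bbc3, Plk2 and Polk), where 6.7% of all genes passed. Scaling to spike-ins gave 12 averaged and 5 in PGC-1alpha+/+ cells, all lower. Leaving out 1 array gave 1 to 5 averaged members: 1 (Bbc3) without PGC-1alpha-/- shTLS array 2 or 3, PGC-1alpha-/- control array 1 or 2, PGC-1alpha+/+ shTLS array 2 or 3 or PGC-1alpha+/+ control array 1, and 5 without PGC-1alpha-/- control array 3 or PGC-1alpha+/+ control array 2. It gave 8 to 13 with the replicate block, against 12, where 20.4% to 33.2% of all genes passed. Leaving out 1 array with the block was chosen after seeing the data, as were the fits of single probes. Without the filter on dim probes Plk2 had adjusted p = 0.0519. Over all genes, the averaged comparison called 1572 genes (980 higher and 592 lower), 5512 with the replicate block, 6238 with the mouse as block, 10362 with spike-in scaling (609 higher and 9753 lower), 1985 with the 75th percentile (1511 higher) and 645 to 1941 without 1 array. In PGC-1alpha-/- cells the count was 189, against 1183 and 1601 with these blocks, 110 with normexp, 91 for probes above background on all arrays and 93 to 224 without 1 array. In PGC-1alpha+/+ cells it was 229, against 2378, 2977, 4298 with spike-ins, 351 with the 75th percentile, 133, 111, 48 in a fit of only the groups compared and 98 to 309. Between genotypes it was 16 with shTLS, 17 with the control and 22 averaged, against 32, 30 and 79 with the replicate block and 2, 3 and 6 for probes above background on all arrays. The 75th percentile moved the median of all genes to 0.12 in PGC-1alpha+/+ cells. Bbc3, Plk2 and Polk stayed above 0 in all settings run. The causes of these shifts were not tested.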
